A study of Homo sapiens with 12 samples.

Results

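The genes described here are the ZNF zinc finger genes that MNNG/HOS cells expressed at a readable level. MNNG/HOS (HOS-MNNG in the sample labels) is an established human osteosarcoma line, a chemically transformed derivative of HOS. A gene was a member when its symbol was ZNF followed only by digits and its CPM (a gene's count in parts per 1000000 of the library's total over genes) averaged at least 5 over the 6 DMSO libraries. Members were thus chosen by their level in the DMSO libraries and not by their response. The same libraries are the controls of the comparisons, so the choice is not wholly independent of the measured response. Of 476 such symbols among 43236 genes in the files, 284 were members, and all 284 passed the filter on low counts, so that no member is missing from the counts that follow. Cells received DMSO, the solvent, or NXP800, an oral small molecule that entered development as an inhibitor of the HSF1 heat shock pathway, and RNA was taken at 6 h or 24 h. The 4 groups were DMSO 6 h, NXP800 6 h, DMSO 24 h and NXP800 24 h, with 3 libraries of polyadenylated RNA in each, all from the same unmodified line and with the drug at a single concentration. The comparisons ask which ZNF transcripts rose or fell under NXP800 within each time point, and whether the response differed between the time points.

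ZNF genes form the largest family of human transcription factors. Their products hold arrays of C2H2 zinc fingers, each finger gripping a zinc ion and reading a few bases of DNA. Many also carry a KRAB box at the start of the protein, which binds the co-repressor TRIM28 (KAP1). TRIM28 in turn brings in the histone methyltransferase SETDB1 and HP1 proteins (CBX1, CBX3, CBX5), and the resulting chromatin silences retroelements and the ZNF clusters themselves. Members without a KRAB box are more mixed and include promoter activators, developmental repressors and proteins that work on RNA or ribosomes.

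Each library held between 30810614 and 31947656 counts on genes. Pairs that fell on no annotated gene made up 6.66 to 8.14% in the 6 h libraries and 2.73 to 3.67% in the 24 h libraries, so each NXP800 group was set only against the DMSO libraries of its own time, and time and library set cannot be told apart. The cells carried the mesenchymal markers VIM, COL1A1, SPARC and RUNX2 in every library, with at least 3439.8, 150.2, 94.5 and 21.8 CPM, while COL1A2, ALPL and SP7 reached at most 0.387 CPM. Of the markers of other cells, PTPRC, CD3E, CDH1, CDH5, ALB and PECAM1 reached at most 0.936 CPM, and EPCAM lay between 5.32 and 10.5 CPM. The treatment showed in genes that answer amino acid and stress signalling through ATF4. DDIT3, the stress factor CHOP, held 12.99, 13.1 and 13.2 CPM in the DMSO libraries and 124, 106 and 94.1 CPM in the NXP800 libraries at 6 h. TRIB3, an ATF4 target, held 24.5, 29.3 and 28.3 CPM in the DMSO libraries and 503, 521 and 468 CPM in the NXP800 libraries, so no NXP800 library came near a DMSO library for either gene.

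Most ZNF members were higher under NXP800 at both times. At 6 h, 171 of the 284 members (60.2%) were called higher and 25 (8.80%) lower, at a p below 0.05 after Benjamini-Hochberg adjustment over 15979 genes in the quasi-likelihood test of edgeR. Among all genes tested, 25% were called higher and 27.8% lower at 6 h. At 24 h, 171 members (60.2%) were again called higher and 24 (8.45%) lower, against 27.5% higher and 28.6% lower among all genes. The median member stood 0.32 higher on the log2 scale at 6 h and 0.32 higher at 24 h, and the medians over all genes were -0.05 and 0.00. The usual size of the change was small. The middle 50% of the members lay between 0.06 and 0.59 at 6 h and between 0.12 and 0.55 at 24 h. Among all 10408 tested genes that met the same minimum of 5 CPM, 27.8% were called higher at 6 h and 28.3% at 24 h. In bulk RNA a change in how many cells express a gene cannot be told apart from a change in RNA per cell.

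The shift was also plain in the members' summed level. Together they took 6140.4, 6149.1 and 6369.7 CPM in the DMSO libraries at 6 h and 8156.1, 7775.7 and 7899.9 CPM in the NXP800 libraries. At 24 h the sums were 6307.1, 6026.1 and 6119.3 CPM in DMSO and 7572.8, 7797.7 and 7358.2 CPM under NXP800. The treated sum was 1.28 times the control sum at 6 h and 1.23 times at 24 h, and the groups did not overlap at either time. Many single members separated too, though not all. The 3 NXP800 libraries all lay above the 3 DMSO libraries in 179 members at 6 h and 183 at 24 h, where 29.3% and 29% of all genes did so. They lay all below in 30 and 28 members, where 32.7% and 30.1% of all genes did, and the groups overlapped in 75 and 73 members.

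**Figure D1:**
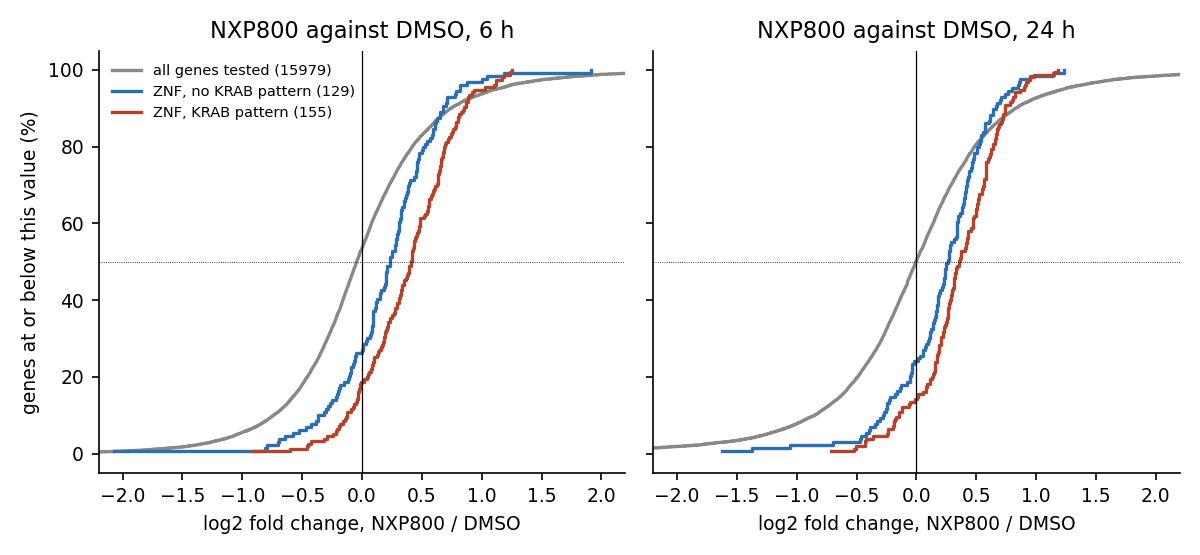
Cumulative share of genes (y axis, %) against the log2 fold change of NXP800 over DMSO (x axis) at 6 h and at 24 h, for all 15979 genes tested, for the 129 ZNF members without the KRAB pattern and for the 155 members with it; 0 is marked by a vertical line. Both ZNF curves lie to the right of the curve of all genes over most of the range, and the KRAB curve lies furthest right, with medians of 0.41 at 6 h and 0.36 at 24 h.

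The same direction held at both times for many members. In all, 140 members were called higher at 6 h and at 24 h, where 16.5% of all genes were called higher both times. Only 9 members were called lower at both times, where 18.5% of all genes were. A further 30 members were called higher at 6 h with no call at 24 h and 29 the other way round, where 7.42% and 9.92% of all genes were, and 45 had no call at either time, against 28.3% of all genes. Across the 284 members the 6 h and 24 h responses correlated with Pearson's r = 0.67 and Spearman's rho = 0.66, close to the 0.65 and 0.63 over all genes tested. Members are not independent replicates, and the responses come from separate control libraries.

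**Figure D2:**
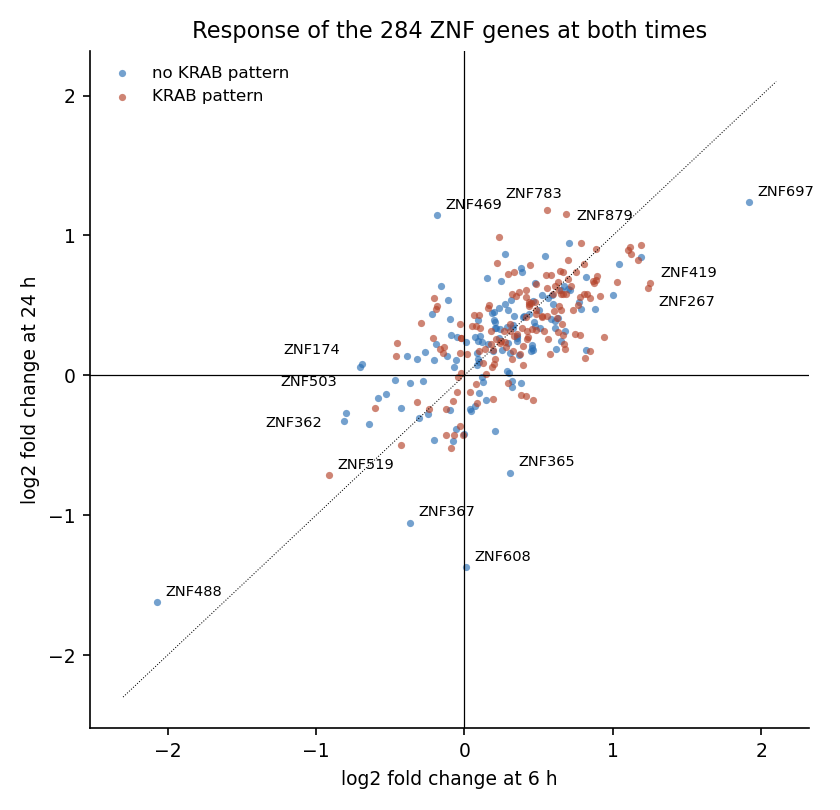
Log2 fold change of the 284 ZNF members at 6 h (x axis) and 24 h (y axis), each point a gene, colored by whether its protein holds the KRAB pattern; the dotted line marks equal responses. Most points sit in the upper right, ZNF697 lies furthest out there at 1.92 and 1.24, and ZNF488 lies alone at the lower left at -2.07 and -1.62.

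Rises over 2-fold were few. At 6 h they numbered 12 members (6.02% of all genes were called and over 2-fold higher) and at 24 h 4 members (against 6.73% of all genes). ZNF697 (chr1:119619377-119648266, GRCh38.p14), which has 11 finger motifs and no KRAB pattern, led at both times. At 6 h it held 53.2, 44.5 and 48.5 CPM in the DMSO libraries and 207, 178 and 167 CPM in the NXP800 libraries, a 3.77-fold rise with a log2 fold change of 1.92 ± 0.11 (SE; edgeR adjusted p = 1.35e-09). At 24 h it held 39.6, 35.7 and 38.1 CPM in the DMSO libraries and 89.1, 104 and 73.8 CPM in the NXP800 libraries, and the log2 fold change was 1.24 ± 0.11 (SE; edgeR adjusted p = 1.19e-07). The response was thus smaller at 24 h, by -0.68 ± 0.15 (SE; edgeR adjusted p = 0.00417), though the groups stayed well apart.

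The next largest rises at 6 h came mostly from KRAB genes on chromosome 19. ZNF419 (chr19:57487750-57496098), a KRAB member, held 4.53, 5.14 and 5.89 CPM in the DMSO libraries and 14.001, 11.4 and 11.6 CPM in the NXP800 libraries at 6 h, and its log2 fold change was 1.25 ± 0.14 (SE; edgeR adjusted p = 1.55e-06). ZNF267 (chr16:31873807-31917357), a KRAB member on chromosome 16, held 23.2, 25.9 and 27.04 CPM in the DMSO libraries and 62.9, 61.04 and 55.8 CPM in the NXP800 libraries, with a log2 fold change of 1.24 ± 0.08 (SE; edgeR adjusted p = 8.43e-09). Neither gene's groups overlapped at 6 h. At 24 h the DMSO level of ZNF267 was itself lower, and the gene held 13.98, 12.7 and 15.8 CPM in the DMSO libraries and 21.1, 22.6 and 21.95 CPM in the NXP800 libraries. Its 24 h response of 0.63 fell short of the 6 h response by -0.61 ± 0.12 (SE; edgeR adjusted p = 0.00176). ZNF181 and ZNF773, both KRAB members on chromosome 19, rose by 1.19 and 1.17 on the log2 scale at 6 h, and ZNF391, a member without KRAB on chromosome 6, by 1.19. Some of these transcripts resemble others. Of the 50-base words of the ZNF773, ZNF419 and ZNF181 transcripts, 17.9%, 11.3% and 10.1% occur in another gene's transcript, and 22.9% of ZNF773's exon bases lie under a neighbouring gene on the same strand, so their counts may hold reads of relatives.

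At 24 h, ZNF783, ZNF879 and ZNF469 followed ZNF697. ZNF469 (chr16:88100931-88440753) encodes a protein tied to collagen matrix and to brittle cornea syndrome, and its rise was late. It held 14.3, 11.1 and 12.1 CPM in the DMSO libraries and 10.2, 11.2 and 11.6 CPM in the NXP800 libraries at 6 h, where the groups overlapped. At 24 h it held 12.9, 11.3 and 11.02 CPM in the DMSO libraries and 24.9, 30.7 and 22.2 CPM in the NXP800 libraries, with a log2 fold change of 1.14 ± 0.12 (SE; edgeR adjusted p = 8.89e-07). The response at 24 h exceeded that at 6 h by 1.33 ± 0.18 (SE; edgeR adjusted p = 5.36e-05), the largest positive difference among the members. ZNF879, a KRAB member on chromosome 5, held 4.65, 4.1 and 4.19 CPM in the DMSO libraries and 9.34, 9.69 and 9.76 CPM in the NXP800 libraries at 24 h, with every treated library far above its controls and a log2 fold change of 1.15 ± 0.11 (SE; edgeR adjusted p = 1.56e-07). ZNF783, a KRAB member on chromosome 7, held 8.83, 10.7 and 7.52 CPM in the DMSO libraries and 17.8, 27.8 and 15.6 CPM in the NXP800 libraries, a rise of 1.18 with a wide spread among the treated libraries, and 29.5% of its exon bases lie under another gene on the same strand. ZNF605 and ZNF621, both KRAB members, rose by 0.99 and 0.95 on the log2 scale at 24 h.

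**Figure D3:**
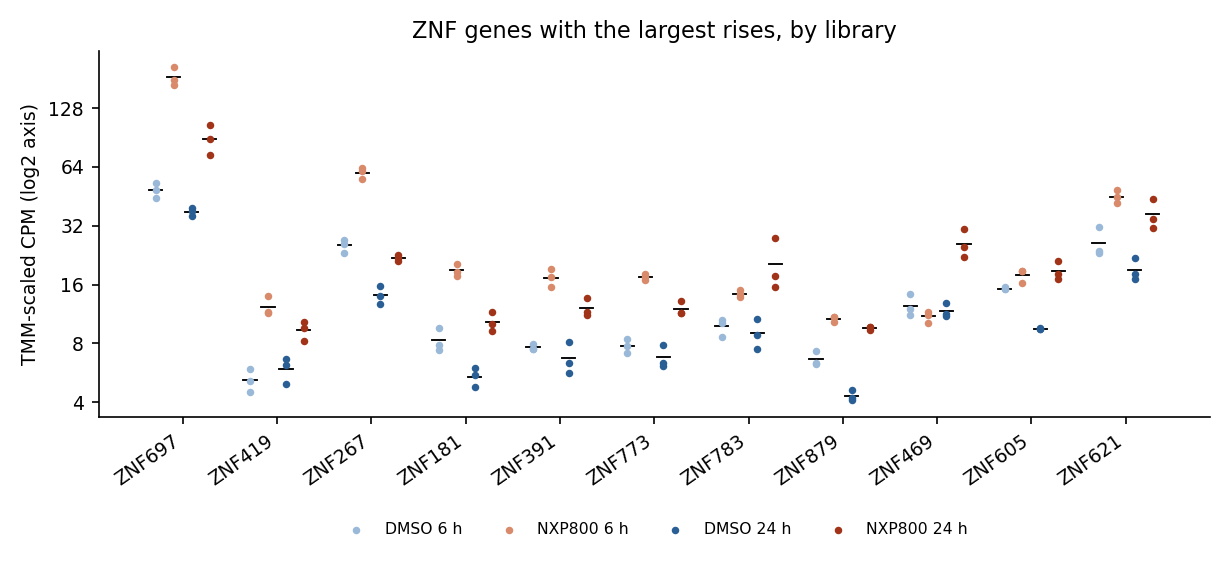
TMM-scaled CPM (log2 axis) of the 11 ZNF members with the largest rises at 6 h or 24 h in each of the 12 libraries, with points for libraries and a bar for the mean of 3. ZNF697 stands highest, near 167 to 207 CPM under NXP800 at 6 h, and ZNF469 is raised only in the 24 h pair of groups.

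The exceptions that fell were led by ZNF488. ZNF488 (chr10:47365496-47384293), a nuclear co-repressor known from oligodendrocyte differentiation, held 10.5, 10.8 and 10.2 CPM in the DMSO libraries and 2.64, 2.33 and 2.49 CPM in the NXP800 libraries at 6 h. At 24 h it held 16.3, 16.04 and 16.2 CPM in the DMSO libraries and 5.32, 3.73 and 6.73 CPM in the NXP800 libraries. The control libraries were close together and no treated library came near them. The log2 fold change was -2.07 ± 0.16 (SE; edgeR adjusted p = 3.29e-08) at 6 h and -1.62 ± 0.15 (SE; edgeR adjusted p = 1.33e-07) at 24 h, and the difference between the times did not pass the test (0.45 ± 0.22 SE; edgeR adjusted p = 0.143). It was the only member called over 2-fold lower at 6 h, where 5.23% of all genes were. At 24 h ZNF608 and ZNF367 joined it, making 3 members, against 7.32% of all genes.

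ZNF519 (chr18:14071121-14132435) was the KRAB member with the largest fall at both times. It held 6.62, 7.28 and 7.66 CPM in the DMSO libraries and 3.72, 4.22 and 3.5 CPM in the NXP800 libraries at 6 h, and its log2 fold change was -0.91 ± 0.12 (SE; edgeR adjusted p = 1.16e-05). At 24 h it held 6.36, 5.31 and 6.18 CPM in the DMSO libraries and 3.67, 3.64 and 3.57 CPM in the NXP800 libraries, with a log2 fold change of -0.71 ± 0.13 (SE; edgeR adjusted p = 0.000145). Its groups were apart at both times. ZNF367 (chr9:96385941-96418370), a member without KRAB and with 2 finger motifs, fell more with time. It held 20.7, 21.7 and 21.4 CPM in the DMSO libraries and 16.7, 17.7 and 15.04 CPM in the NXP800 libraries at 6 h and 15.4, 18.2 and 18.6 CPM in the DMSO libraries and 7.99, 8.81 and 8.36 CPM in the NXP800 libraries at 24 h. Its log2 fold change went from -0.37 ± 0.09 (SE; edgeR adjusted p = 0.00303) to -1.05 ± 0.10 (SE; edgeR adjusted p = 1.59e-07), and the later response was the lower by -0.69 ± 0.13 (SE; edgeR adjusted p = 0.00138).

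The remaining members called lower at both times had smaller changes. ZNF576 fell by 0.64 on the log2 scale at 6 h and by 0.35 at 24 h, and ZNF672 by 0.30 and 0.31. With each of the 12 libraries left out in turn, ZNF488, ZNF519, ZNF367, ZNF576 and ZNF672 kept both calls every time. ZNF180 (-0.25 and -0.27) kept both in 10 of the 12 fits and ZNF362 (-0.81 and -0.33) in 9. ZNF738 (-0.43 and -0.50) kept both in 6 and ZNF74 (-0.24 and -0.24) in only 3, so the last pair lie at the edge of the test. With offsets for GC content and length the 6 h call of ZNF672, the 24 h call of ZNF362 and both calls of ZNF74 were lost.

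Other members were called lower at 6 h and not at 24 h. ZNF503 (chr10:75279725-75401916; NOLZ1), a developmental repressor, held 22.6, 29.3 and 28.2 CPM in the DMSO libraries and 15.8, 16.3 and 17.1 CPM in the NXP800 libraries at 6 h, and its log2 fold change was -0.71 ± 0.11 (SE; edgeR adjusted p = 5.07e-05). At 24 h its groups overlapped and the log2 fold change was 0.06. ZNF174, a SCAN-domain factor, followed the same course, with -0.69 at 6 h and 0.08 at 24 h, and the responses of both genes differed between the times (differences of 0.76 and 0.77; edgeR adjusted p = 0.00159 and 0.00136). ZNF704 and ZNF30 had log2 fold changes of -0.80 and -0.61 at 6 h, both called lower, and of -0.27 and -0.23 at 24 h, not called, and the difference between the times passed for neither (edgeR adjusted p = 0.0511 and 0.143), though with the replicate block it did for ZNF704 (0.0184). The NXP800 libraries of ZNF30 lay below the DMSO libraries at 24 h too. With the replicate number as a block, ZNF704 was called lower at 24 h too (edgeR adjusted p = 0.0478).

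ZNF608 and ZNF365 fell late. ZNF608 (chr5:124636915-124748824) held 13.7, 12.8 and 10.6 CPM in the DMSO libraries and 16.1, 11.1 and 10.1 CPM in the NXP800 libraries at 6 h, where the groups overlapped. At 24 h it held 12.01, 13.3 and 12.2 CPM in the DMSO libraries and 4.42, 5.17 and 4.88 CPM in the NXP800 libraries, and the log2 fold change was -1.37 ± 0.16 (SE; edgeR adjusted p = 1.97e-06). ZNF365 (chr10:62374369-62480285), a gene with a part in genome stability, held 51.4, 45.02 and 43.2 CPM in the DMSO libraries and 55.2, 62.5 and 54.9 CPM in the NXP800 libraries at 6 h and 37.3, 41.4 and 35.3 CPM in the DMSO libraries and 23.9, 25.7 and 20.8 CPM in the NXP800 libraries at 24 h. It was called higher at 6 h (0.31; edgeR adjusted p = 0.00949, but 0.0548 without NXP800 6 h replicate 2) and lower at 24 h (-0.70; edgeR adjusted p = 1.13e-05). A neighbouring gene on the same strand covers 25.4% of its exon bases. ZNF703, an oncogene of luminal breast cancer, and ZNF732, a KRAB member, were called lower at 24 h, with log2 fold changes of -0.47 and -0.52, and were not called at 6 h. The difference between the times passed for ZNF703 (-0.39; edgeR adjusted p = 0.0165) and not for ZNF732 (-0.43; edgeR adjusted p = 0.0631, but 0.0232 with the replicate number as a block).

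**Figure D4:**
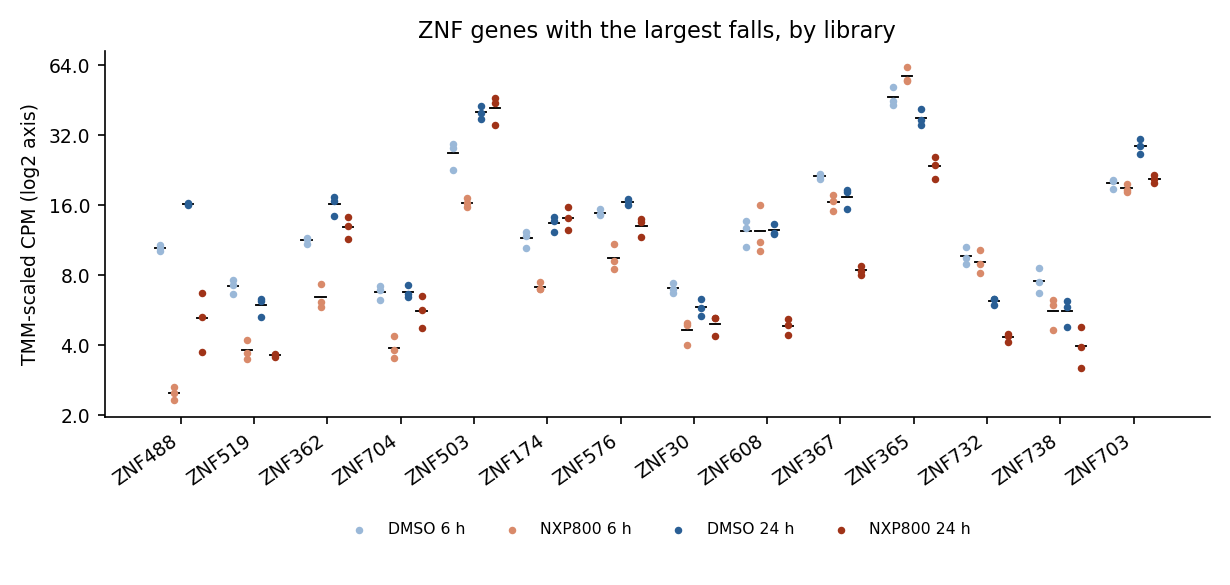
TMM-scaled CPM (log2 axis) of the 14 ZNF members with the largest falls at 6 h or 24 h in each of the 12 libraries, with points for libraries and a bar for the mean of 3. ZNF488 drops furthest, from 10.2 to 10.8 CPM to 2.33 to 2.64 CPM at 6 h, while ZNF608 is lower only in the NXP800 24 h libraries.

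Promoter sequences are given for 4 members, to set the strongest rise and a KRAB rise beside falls of a KRAB member and of a member without KRAB. They run from 250 bases before the RefSeq start to 50 after it (GRCh38.p14), read along the gene. The first 2 are members that rose, ZNF697 (chr1:119648217-119648516, minus strand) and ZNF267 (chr16:31873557-31873856, plus strand), and the last 2 are members that fell, ZNF519 (chr18:14132386-14132685, minus strand) and ZNF367 (chr9:96418321-96418620, minus strand). Capitals mark any of the 4 motifs searched on both strands, which are TGATGNAA (letters bound by ATF4 with C/EBP partners), GAANNTTC (paired heat shock units), CCAATCAG (a CCAAT box) and CCGGAAG (letters of ETS factors). No marked sites overlap each other. CCAAT letters that CAG does not follow are left unmarked, and the ZNF367 promoter holds such letters on both strands.
ZNF697: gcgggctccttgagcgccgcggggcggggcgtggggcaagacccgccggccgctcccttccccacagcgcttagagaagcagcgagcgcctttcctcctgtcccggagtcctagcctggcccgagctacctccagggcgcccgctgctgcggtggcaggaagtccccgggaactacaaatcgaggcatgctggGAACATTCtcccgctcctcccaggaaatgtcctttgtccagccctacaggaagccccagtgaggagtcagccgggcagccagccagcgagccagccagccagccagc
ZNF267: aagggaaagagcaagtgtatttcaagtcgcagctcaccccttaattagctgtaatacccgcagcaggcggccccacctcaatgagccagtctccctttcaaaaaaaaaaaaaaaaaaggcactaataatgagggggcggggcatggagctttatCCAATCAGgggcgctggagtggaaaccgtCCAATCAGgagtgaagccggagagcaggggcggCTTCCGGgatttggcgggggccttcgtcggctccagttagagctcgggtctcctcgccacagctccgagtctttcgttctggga
ZNF519: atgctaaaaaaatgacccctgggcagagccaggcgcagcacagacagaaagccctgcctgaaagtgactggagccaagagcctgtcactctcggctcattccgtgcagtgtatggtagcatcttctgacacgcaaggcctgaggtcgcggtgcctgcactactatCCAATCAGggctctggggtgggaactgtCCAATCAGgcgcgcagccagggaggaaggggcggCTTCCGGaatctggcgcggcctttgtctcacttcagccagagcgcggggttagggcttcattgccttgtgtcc
ZNF367: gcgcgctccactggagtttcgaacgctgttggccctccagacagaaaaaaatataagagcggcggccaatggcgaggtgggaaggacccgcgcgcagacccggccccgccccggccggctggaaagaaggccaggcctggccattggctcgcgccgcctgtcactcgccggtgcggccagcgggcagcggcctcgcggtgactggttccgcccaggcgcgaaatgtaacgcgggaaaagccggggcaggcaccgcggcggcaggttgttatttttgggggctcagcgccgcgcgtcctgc

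ZNF267 and ZNF519 moved in opposite directions from much alike promoters. A local alignment paired 139 positions of the 2 sequences of which 107 are identical, and in each the pair of CCAATCAG letters comes first and the CCGGAAG letters (read as CTTCCGG) follow, within the aligned stretch. At 6 h ZNF267 changed by 1.24 and ZNF519 by -0.91 on the log2 scale. The CCAAT and ETS letters were picked for search after these promoters had been read. Promoters were on hand for 246 of the 284 members. CCAATCAG occurred at least 2 times in 18 of them (7.32%), against 0.52% of all 27305 promoters, and together with CCGGAAG in 13 (5.28%), against 0.106%. All 13 carried the KRAB pattern, and among them were ZNF141, ZNF430, ZNF85, ZNF92 and ZNF680. At 6 h, 6 of the 13 were called higher and 2 lower. Their median was 0.21, below the 0.32 of all members and the 0.41 of KRAB members. The lowest and highest of the 13 values, -0.91 and 1.24, are those of ZNF519 and ZNF267, from which the letters were picked.

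CCGGAAG alone was found in 109 of the 246 member promoters (44.3%), against 10.7% of all promoters and 18.1% of those of tested genes. Among members called higher at 6 h the share was 50.3% (75 of 149), among those called lower 31.6% (6 of 19) and among the rest 35.9% (28 of 78). The ATF4 letters TGATGNAA occurred in 3 member promoters (1.22%), those of ZNF143, ZNF436 and ZNF486, against 1.86% of the promoters of tested genes and 3.67% of all promoters. GAANNTTC occurred in 17 (6.91%), ZNF697 among them, against 4.77% of the promoters of tested genes and 6.87% of all. A match of letters is a description of the sequence and not a site shown to be bound.

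KRAB members had the higher medians at both times. The KRAB pattern was found in the proteins of 155 members, with a median of 11 finger motifs, and was missing from 129, with a median of 8. At 6 h, 100 KRAB members (64.5%) were called higher and 9 lower, with a median of 0.41. Of the members without KRAB, 71 were higher and 16 lower, with a median of 0.23. At 24 h the medians were 0.36 and 0.26, with 98 and 73 members higher and 8 and 16 lower. The groups differ in more than the KRAB box. KRAB members had a median DMSO level of 10.6 CPM against 21.03 CPM, and a median transcript GC content of 42.5% against 49.9%. No test was made between them. Among all genes tested 25% were higher and 27.8% lower at 6 h, and 27.5% and 28.6% at 24 h.

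GC content and the response were weakly and inversely related. Over all members GC correlated with the 6 h log2 fold change at r = -0.21 and with that at 24 h at -0.11, against -0.16 and -0.03 over tested genes with other names. Among members under 45% GC, KRAB and other members were alike in their share called higher at 6 h, 67.6% of 105 and 70.8% of 48, with medians of 0.43 and 0.32. Among 5108 other tested genes under 45% GC the share was 32.9% and the median 0.05. With offsets for GC content and length, fitted on genes outside the family, 163 members were higher and 26 lower at 6 h, and 175 and 20 at 24 h.

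Medians also differed by level and by finger number, without a test. When members were cut into 3 equal parts by DMSO level, the median 6 h change was 0.41 in the lowest part, 0.24 in the middle and 0.28 in the highest. Members with up to 5 finger motifs had a 6 h median of 0.18, and 29 of 59 were called higher and 10 (16.9%) lower. At 24 h 11 of these 59 (18.6%) were called lower, and the 3 members over 2-fold lower then were among them. Over all members 8.80% and 8.45% were lower at 6 h and 24 h, and over all genes 27.8% and 28.6%. For 6 to 10 motifs the 6 h median was 0.33 with 60 of 98 higher and 8 lower. For 11 to 15 motifs it was 0.38 with 54 of 82 higher and 4 lower. Those with over 15 had a 6 h median of 0.35, and 28 of 45 were called higher and 3 lower. At 24 h 0 of these 45 were called lower.

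Chromosome 19 holds 120 of the 284 members (42.3%), against 6.42% of all tested genes. There 81 members (67.5%) were called higher and 7 lower at 6 h, and 71 (59.2%) and 7 at 24 h. Of the 164 members elsewhere, 90 (54.9%) were higher and 18 lower at 6 h, and 100 (60.98%) and 17 at 24 h. Over all members 60.2% were higher at each time. Over all genes 25% were higher and 27.8% lower at 6 h, and 27.5% and 28.6% at 24 h. Clusters, taken as 5 or more members with gaps under 1 Mb, numbered 13. Their 6 h medians ran from 0.09 to 0.61, around the 0.32 of all members, and differences between clusters were not tested. In the largest, chr19:57191500-58489533 with 30 members, 22 were called higher at 6 h, with a median of 0.40. In chr19:51571283-53580269, which holds ZNF649, ZNF350 and ZNF765 among 19 members, 15 were higher and 1 lower, and the median was 0.61 at 6 h and 0.61 at 24 h. ZNF350 (ZBRK1), a KRAB partner of BRCA1, rose there by 1.10 at 6 h.

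The cluster at chr19:19668153-21767579 behaved otherwise at 24 h. Of its 12 members, which include ZNF93, ZNF85 and ZNF430, 6 were higher and 1 lower at 6 h with a median of 0.26, and 3 were higher and 2 lower at 24 h with a median of -0.04. ZNF738 was called lower there at both times. The cluster at chr7:149069641-149497809, which holds ZNF783, went the other way, with 4 of 7 members higher at 6 h and all 7 higher at 24 h, and medians of 0.32 and 0.55. At chr12:132918306-133214832, 5 of 7 members were higher at 6 h and 6 at 24 h, with medians of 0.23 and 0.68. Over all members 60.2% were higher at each time, and over all genes 25% and 27.5%. Members of a cluster share sequence and may share reads.

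Responses differed between the times in a minority of members. The 24 h response was above the 6 h response in 35 members and below it in 29, at an adjusted p below 0.05 for the difference itself, where 12% of all genes were above and 13.8% below. With the replicate number kept as a block, 54 members were above and 52 below, where 18.4% and 20.9% of all genes were in the same fit. Leaving out NXP800 6 h replicate 1 left 23 above and 15 below, leaving out DMSO 24 h replicate 3 left 23 above, and leaving out DMSO 6 h replicate 2 left 19 below. The largest differences were those of ZNF469 (1.33), ZNF296 (0.79) and ZNF174 (0.77) upward and of ZNF608 (-1.38), ZNF365 (-1.002) and ZNF569 (-0.69) downward. ZNF296, a partner of reprogramming factors in stem cells, held 9.33, 8.81 and 8.86 CPM in the DMSO libraries and 15.9, 11.9 and 14.3 CPM in the NXP800 libraries at 24 h and overlapped at 6 h. ZNF569, a KRAB member, held 13.4, 12.99 and 11.3 CPM in the DMSO libraries and 23.7, 21.8 and 20.8 CPM in the NXP800 libraries at 6 h and overlapped at 24 h.

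Opposite calls at the 2 times were found for 3 members, against 2.12% of all genes. They were ZNF365, above, and ZNF248 and ZNF480, both KRAB members that were lower at 6 h and higher at 24 h. ZNF248 changed by -0.29 and 0.37, and ZNF480, named after its values were seen, by -0.19 and 0.47. The 6 h call of ZNF248 was lost without 7 of the 12 libraries, each left out in turn.

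The most abundant members were not the ones that moved most. DMSO levels of the 284 members ran from 5.11 to 219 CPM with a median of 13.3 CPM, and 85 reached 20 CPM, 24 reached 50 CPM and 5 reached 100 CPM. ZNF207 (BUGZ), a spindle protein that binds the checkpoint factor BUB3, was the highest. It held 244, 235 and 209 CPM in the DMSO libraries and 219, 188 and 174 CPM in the NXP800 libraries at 24 h, where the groups overlapped in range and the log2 fold change was -0.25 ± 0.08 (SE; edgeR adjusted p = 0.0165), a call lost without 3 of the libraries in turn. ZNF146 (OZF), a protein made almost wholly of fingers, held 163, 158 and 161 CPM in the DMSO libraries and 246, 222 and 217 CPM in the NXP800 libraries at 6 h, and its log2 fold change was 0.51 ± 0.07 (SE; edgeR adjusted p = 1.47e-05). It rose by 0.34 at 24 h. ZNF496, a partner of the methyltransferase NSD1, was flat at 6 h (-0.05, not called) and rose by 0.27 at 24 h (edgeR adjusted p = 0.00231).

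Silencers of retroelements and of ZNF loci are the classic KRAB genes, and 13 of the 18 listed from general knowledge were members. At 6 h, 9 (69.2%) were called higher and 1 (7.69%) lower, with a median of 0.56. At 24 h, 9 (69.2%) were called higher, with all 13 values above 0 and a median of 0.37. Over all members 60.2% were called higher at each time, and over all genes 25% and 27.5%. ZNF274, which guides SETDB1 to the last exons of ZNF genes, held 36.3, 32.1 and 37.8 CPM in the DMSO libraries and 67.2, 63.6 and 60.5 CPM in the NXP800 libraries at 6 h, and its log2 fold change was 0.85 ± 0.09 (SE; edgeR adjusted p = 1.15e-06). It rose by 0.55 at 24 h. ZNF765 rose by 0.89 and 0.90, ZNF140 by 0.88 and 0.68 and ZNF268 by 0.71 and 0.64, all called at both times. An antisense gene, ZNF891, covers 45.3% of the exon bases of ZNF140, and 9.71% of the 50-base words of ZNF765 occur in another gene. ZNF91 and ZNF93, known for silencing SVA and L1 elements, parted: ZNF91 was called higher at both times (0.48 and 0.32), the later call being lost without 3 of the libraries in turn, and ZNF93 had 0.14 and 0.01 and no call. ZNF10 (KOX1), the source of the KRAB domain used in engineered repressors, had -0.13 and 0.20, not called in either case, though with the replicate block its 24 h value was (edgeR adjusted p = 0.0494).

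The list of ZNF-named proteins that work on RNA, ribosomes or the spindle had 13 members. Of these 8 (61.5%) were higher and 1 (7.69%) lower at 6 h, and 8 and 1 at 24 h. These shares were near those of all members, 60.2% higher at each time and 8.80% and 8.45% lower. Of all genes 25% and 27.5% were higher and 27.8% and 28.6% lower. ZNF598, the ubiquitin ligase that senses collided ribosomes, held 116, 113 and 123 CPM in the DMSO libraries and 148, 138 and 159 CPM in the NXP800 libraries at 6 h and 153, 145 and 137 CPM in the DMSO libraries and 196, 202 and 187 CPM in the NXP800 libraries at 24 h. The treated libraries lay above the controls each time, with log2 fold changes of 0.34 ± 0.07 (SE; edgeR adjusted p = 0.000544) and 0.42 ± 0.07 (SE; edgeR adjusted p = 5.19e-05). ZNF622, a maturation factor of the large ribosomal subunit, held 62.1, 55.5 and 59.3 CPM in the DMSO libraries and 103, 98.01 and 94.5 CPM in the NXP800 libraries at 24 h and rose more then (0.74) than at 6 h (0.39), a difference of 0.35 (edgeR adjusted p = 0.0099). ZNF330 rose by 0.58 and 0.40. ZNF326, of the complex that links splicing to elongation, was called only at 24 h (0.40), and ZNF346, which binds double-stranded RNA, was called lower at 6 h (-0.28) and not at 24 h, with no call for the difference (edgeR adjusted p = 0.0638, but 0.0251 with the replicate block). ZNF593 was called higher at 6 h (0.32), but an antisense gene covers all of its exon bases.

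Activators and growth regulators, a list of 21 of which 19 were members, were the least shifted of these lists. At 6 h, 8 (42.1%) were higher and 3 (15.8%) lower with a median of 0.09. At 24 h, 9 (47.4%) were higher and 4 (21.1%) lower with a median of 0.16. Over all genes 25% were higher and 27.8% lower at 6 h, and 27.5% and 28.6% at 24 h. ZNF217, an oncogene of breast tumours, held 63.8, 57.3 and 62.8 CPM in the DMSO libraries and 114, 107 and 103 CPM in the NXP800 libraries at 6 h, and its log2 fold change was 0.82 ± 0.06 (SE; edgeR adjusted p = 2.99e-08). By 24 h its response had shrunk to 0.18, a difference of -0.63 (edgeR adjusted p = 9.18e-05). ZNF24, a SCAN-domain repressor, rose by 0.70 and 0.62, and ZNF202, which also carries the KRAB pattern, by 0.66 and 0.29. ZNF143, an activator of small nuclear RNA and many other promoters, had -0.12 and 0.14 with no call. ZNF219 and ZNF532 were called lower at 6 h (-0.53 and -0.32) and not at 24 h, and ZNF395 was called lower at 24 h (-0.38) and not at 6 h, with no call for the difference (edgeR adjusted p = 0.0665, but 0.00841 with the replicate block). For ZNF219 24.7% of the exon bases lie under antisense genes, and for ZNF395 34.99% lie under a neighbouring gene on the same strand. The 6 h rise of ZNF148 (0.16) became -0.04 with the offsets for GC content and length.

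The co-repressors that KRAB proteins recruit had more genes lower than higher, as did all tested genes at 5 CPM or more. Of 18 listed partners, 4 (22.2%) were higher and 8 (44.4%) lower at 6 h, with a median of -0.12. At 24 h 4 (22.2%) were higher and 9 (50%) lower, with a median of -0.18. The share called higher was near that of all genes. Of tested genes at 5 CPM or more, 27.8% were higher and 33.4% lower at 6 h, and 28.3% and 34.99% at 24 h. With 18 genes the list's shares are rough, and no test was made. TRIM28, the hub of the system, held 970.3, 873 and 908 CPM in the DMSO libraries and 807, 687 and 733 CPM in the NXP800 libraries at 24 h, and its log2 fold change was -0.30 ± 0.07 (SE; edgeR adjusted p = 0.00179). At 6 h its value of -0.15 was not called (edgeR adjusted p = 0.0936), but was with the replicate block (0.0133). CBX3 fell by 0.47 on the log2 scale at 6 h and by 0.69 at 24 h, and UHRF1, which guides DNA methylation after replication, by 0.70 and 1.02. SETDB1, the chromatin remodeler SMARCAD1, the HUSH subunit TASOR and HDAC2 rose, SETDB1 by 0.30 and 0.23.

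Relatives outside the member list mostly moved the same way. Of 114 ZNF genes under 5 CPM that passed the filter, 54 (47.4%) were called higher and 11 lower at 6 h, and 54 and 5 at 24 h, with medians of 0.38 and 0.38. A gene this low in DMSO could pass the filter through raised NXP800 libraries alone, which favours rises in this set. Its counts are thus a description only. ZBTB genes at 5 CPM or more (33, with a BTB domain in place of KRAB) had 17 higher (51.5%) and 7 lower (21.2%) at 6 h. At 24 h they had 19 (57.6%) and 1 (3.03%). Of 21 ZSCAN and ZKSCAN genes 13 (61.9%) were higher and 3 (14.3%) lower at 6 h, and 12 (57.1%) and 1 (4.76%) at 24 h. Of 10 ZFP genes, 7 (70%) were higher and 1 (10%) lower at 6 h, and 7 (70%) were higher at 24 h. Among all genes 25% were higher and 27.8% lower at 6 h, and 27.5% and 28.6% at 24 h. The share of ZBTB genes lower at 6 h was nearer that of all genes than the 8.80% of the members. Just inside the minimum lay ZNF44 and ZNF615, at 5.11 CPM each in DMSO, and just outside ZNF182 and ZNF708, at 4.99 and 4.98 CPM. Their 6 h log2 fold changes were 0.09, 0.44, 0.65 and 0.06.

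**Figure D5:**
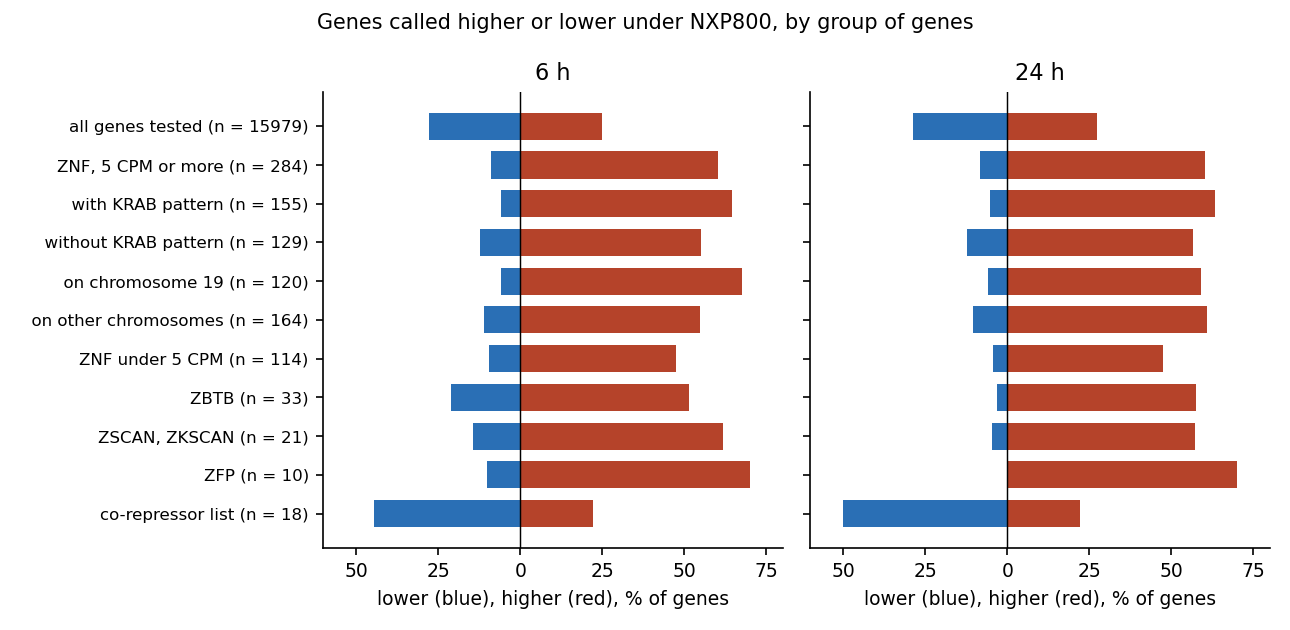
Share of genes called higher (red, to the right) or lower (blue, to the left) under NXP800 at 6 h and 24 h, in % of the genes of each group named on the y axis with its n. The ZNF members show 60.2% higher at each time against 25% and 27.5% of all genes. The co-repressor list has more genes lower than higher, as do all genes tested (27.8% and 28.6% lower).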

How the data were processed

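RNA of MNNG/HOS cells was extracted with a NucleoSpin RNA Plus kit and sequenced as paired ends from strand-specific mRNA libraries. The authors deposited raw counts per gene, without normalization, for each of the 12 libraries. Per the labels the reads were processed with fastp 0.20.1, STAR 2.7.5a and HTSeq 0.12.4 on GRCh38.p14 (hg38). The strand setting and the counting mode are not given in the sources used here, so reads of overlapping genes may be lost or shared. Entries that name no gene (reads on no annotated gene 2.73 to 8.14%, ambiguous 2.10 to 2.43%, aligned to several places 1.86 to 3.37%) entered neither library sizes nor tests.

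Counts were filtered with filterByExpr, which kept 15979 genes, scaled by TMM and tested in R 4.3.3 with edgeR 4.0.16 (glmQLFit and glmQLFTest) in a single model of the 4 groups, common dispersion 0.00723, with adjustment over all genes. Per-library values are TMM-scaled CPM. With at least 30810614 counts a library, replicate spread rather than counting error limits all but low genes. DESeq2 1.42.0, other scalings and filters, member rules, offsets for GC content and transcript length and each library left out were alternatives. The study's methods give 3 replicates per condition and state for its results in general that they come from independent experiments, without saying how the cultures behind these libraries were separated. The p-values measure the spread between these libraries. No libraries were near-copies of each other: chi-square per degree of freedom between replicates of a group was 7.36 to 26.3. NXP800 and DMSO libraries with the same replicate number varied together to some degree after removal of group means. Across genes r lay between 0.159 and 0.329 for 6 pairs, and was at most 0.0580 for different numbers. This pairing by number is read from the data, not from a stated design. The main tests leave it out, and fits with the replicate number as a block are an alternative.

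KRAB boxes were called where at least 11 of 16 conserved positions matched, and finger motifs by the spacing of cysteines and histidines, in proteins translated from GENCODE transcripts, which may differ from the models counted on. Of the 284 members, 20 share over 5% of their 50-base words with another gene. Overlaps and shared words of over 20% are given beside the named members they touch. Same-strand or antisense overlaps of 5.54 to 10.9% of exon bases also touch ZNF10, ZNF143, ZNF146, ZNF174, ZNF181, ZNF268, ZNF391, ZNF503, ZNF576, ZNF598 and ZNF649. Members, lists and tests were chosen with earlier results of these data known. Members named in the text are those of a rule: at each time the 6 largest rises and up to 8 largest falls among called members with separate libraries, members lower at both times, the 4 of highest level, the 3 largest differences of responses each way, those next to the minimum of 5 CPM and the role lists. Others are named as cluster, motif or family examples. The procedure was tested on simulated data.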

Additional observations from a re-analysis of the deposited data

Results flagged for a closer look

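The change of the response from 6 h to 24 h passed an adjusted p of 0.05 (edgeR) for 26 of the 75 ZNF members that the naming rule gives. It also passed for 5 of the genes set beside them. The rule picks some members by this very difference, so the count is no share of the family. Over all 284 members 35 were above and 29 below, where 12% of all genes were above and 13.8% below. All values here are the 24 h log2 fold change minus the 6 h log2 fold change, so a positive value is a response that was higher at 24 h.

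The response was higher at 24 h for 15 members. ZNF469 differed by 1.33, ZNF296 by 0.79, ZNF174 by 0.77, ZNF503 by 0.76 and ZNF605 by 0.75. Of these ZNF503 and ZNF174 were called lower at 6 h alone, and ZNF469 and ZNF296 were called higher at 24 h alone. ZNF248 differed by 0.66, ZNF326 by 0.50, ZNF362 by 0.48, ZNF879 by 0.47 and ZNF532 by 0.44. Smaller positive differences were those of ZNF219 (0.39), ZNF622 (0.35), ZNF496 (0.32), ZNF638 (0.31) and ZNF281 (0.26).

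The response was lower at 24 h for 11 members. ZNF608 differed by -1.38 and ZNF365 by -1.002, and both were called lower only at 24 h. ZNF569 differed by -0.69, ZNF367 by -0.69, ZNF697 by -0.68, ZNF217 by -0.63, ZNF267 by -0.61 and ZNF419 by -0.59, and of these ZNF367 alone was a deeper fall, the others being rises that had shrunk. ZNF703, likewise called lower only at 24 h, differed by -0.39, ZNF202 by -0.37 and ZNF593 by -0.36. Among the genes set beside the members, the stress genes ATF3 and SESN2 differed by -1.30 and -1.21, and the co-repressor genes DNMT1, ATF7IP and UHRF1 by -0.66, -0.41 and -0.32.

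Several of these differences lay near the threshold, and their calls needed most of the libraries. The call was lost without 10 of the 12 libraries, each left out in turn, for ZNF593 and ZNF219, without 8 for ZNF281 and ZNF202, and without 7 for ZNF419, ZNF362 and ZNF638. For ZNF608, ZNF365, ZNF469, ZNF697, ZNF267, ZNF367, ZNF217, ZNF569, ZNF174 and ZNF503 no library was needed for the call.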

How the results depend on the processing

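The direction of the members' medians held under every alternative that was run. The replicate block (paired by number) gave 184 members higher and 32 lower at 6 h, 195 and 29 at 24 h, and 54 and 52 with differing responses, in place of 35 and 29. With the block and offsets for GC content and length together the last pair was 60 and 50. At an adjusted p below 0.01 it was 15 and 11, and 5 members were lower at both times in place of 9. With library size only as scaling, 14 members had a lower response at 24 h, 5 were lower at both times, and the 24 h median was 0.41. A minimum of 10 CPM left 111 members higher at 6 h and 93 at both times, out of fewer members, with a 6 h median of 0.27. The 6 h median was 0.35 with a minimum of 5 CPM over all 12 libraries and 0.35 with only the 6 libraries of the time point.

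With each library left out in turn, 147 to 179 members were higher and 18 to 26 lower at 6 h, and 150 to 170 higher and 21 to 25 lower at 24 h. The medians ran from 0.30 to 0.35 at 6 h and from 0.30 to 0.35 at 24 h, 122 to 140 members were higher and 6 to 8 lower at both times, and 23 to 34 had a higher and 15 to 35 a lower response at 24 h.

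Among values of single named members, 4553 of 4875 kept their side of the threshold, 220 lost a call and 99 gained one. Another 3 changed sign with a call in the main fit or in the alternative. Sign changes among values called in neither fit were not counted. The 6 h value of ZNF148 became -0.037 with the offsets alone and -0.037 with the block added, and that of ZNF496 became 0.10 with both. The cause was not tested. The choice of members by the other time point's DMSO libraries was not run for the difference of the responses, which uses both. Members near 5 CPM have the fewest counts, so changes among them are less precise than among abundant members.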
